A study of Mus musculus with 20 samples.

Results

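Gas5 and 9 genes of the Snhg (small nucleolar RNA host gene) family, Snhg1, Snhg3, Snhg5, Snhg6, Snhg8, Snhg12, Snhg15, Snhg17 and Snhg20, were described in the RNA of mouse SIMS cells. They were chosen by symbol in GENCODE M21, make up 10 of the 55471 genes listed, and all 10 were among the 15296 genes with enough counts to be tested. SIMS is a salivary gland line, and its 20 libraries of total RNA fell into 5 groups of 4: unedited wild type, a Btbd7 knockout (KO) that served as the negative control, and Zcchc8 KO clones 1, 2 and 3, which are 3 separate lines. All cells were grown in DMEM with 10% FBS, and the KO lines had been made with CRISPR/Cas9. Each clone is 1 line, the replicates are libraries of it, and the labels do not say whether they came from separate cultures, so p-values measure the spread between these libraries only.

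Small nucleolar RNAs (snoRNAs) guide the chemical modification of ribosomal and other RNAs: those of the box C/D class direct ribose methylation and those of the box H/ACA class direct pseudouridylation. Most mammalian snoRNAs are cut out of the introns of a host gene after splicing. The spliced RNA of the Snhg genes carries no long conserved reading frame and many of these RNAs are short-lived. ZCCHC8 is a subunit of the nuclear exosome targeting complex, which hands short nuclear transcripts to the RNA exosome, a 3′-to-5′ RNase that also trims the ends of snoRNA precursors. Promoter upstream transcripts (PROMPTs) are unstable RNAs made upstream of promoters, and the series set out to measure such transcripts in cells without Zcchc8.

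GENCODE M21 (GRCm38) places 34 snoRNA or scaRNA genes (scaRNAs are the Cajal body relatives of snoRNAs) wholly inside the 10 host genes on the same strand. Gas5 holds 10 of them, Snhg1 8, Snhg12 5, Snhg17 3, Snhg3 and Snhg5 2 each, and Snhg6, Snhg8, Snhg15 and Snhg20 1 each. Snord80 in Gas5 and Snora16a in Snhg12 are each annotated as 2 overlapping genes. All counts of hosted RNAs are therefore counts of annotated genes, not of separate loci. The hosted RNAs fell into both classes: 18 carried the box C core TGATGA and the box D core CTGA at their ends, 11 had an ACA triplet close to the 3′ end, and 5 had neither in these exact letters. The matches in Gas5 (8), Snhg1 (6), Snhg5 and Snhg6 were of the C/D kind, and those in Snhg3, Snhg8, Snhg15, Snhg17 and Snhg20 of the ACA kind, whereas Snhg12 held both.

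The sequences below belong to the hosts whose level changed, and to the hosted RNAs that had counts of their own. They are the GENCODE M21 sequences on GRCm38, 5′ to 3′ on the strand of the host, with box C and box D, or the ACA triplet, in capitals. Snora9 (chr11:6528033-6528165, minus strand) is the RNA of Snhg15, and Gm26083 (chr11:117077243-117077435, plus strand) the scaRNA of Snhg20. Snord47 (chr1:161038082-161038158, plus strand) stands for the 10 RNAs of Gas5. Gm24411 (chr2:158356424-158356554) and Gm26003 (chr2:158358360-158358472) lie on the minus strand in Snhg17. Snord50a (chr9:88521529-88521600) and Snord50b (chr9:88521797-88521868), both on the minus strand in Snhg5, differ at 1 of 72 positions.
Snora9: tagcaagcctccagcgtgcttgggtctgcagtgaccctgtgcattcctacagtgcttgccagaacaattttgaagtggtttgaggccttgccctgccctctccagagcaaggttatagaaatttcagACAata
Gm26083: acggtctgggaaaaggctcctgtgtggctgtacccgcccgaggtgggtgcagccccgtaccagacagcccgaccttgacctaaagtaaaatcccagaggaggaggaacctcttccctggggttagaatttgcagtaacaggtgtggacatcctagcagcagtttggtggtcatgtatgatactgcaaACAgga
Snord47: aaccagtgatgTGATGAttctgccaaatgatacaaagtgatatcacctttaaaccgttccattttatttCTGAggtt
Gm24411: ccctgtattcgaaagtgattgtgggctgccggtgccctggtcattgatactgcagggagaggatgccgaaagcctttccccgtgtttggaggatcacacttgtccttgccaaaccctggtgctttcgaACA
Gm26003: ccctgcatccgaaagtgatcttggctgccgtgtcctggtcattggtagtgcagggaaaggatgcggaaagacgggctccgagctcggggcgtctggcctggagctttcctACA
Snord50a: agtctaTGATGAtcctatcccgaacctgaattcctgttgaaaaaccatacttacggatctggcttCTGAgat
Snord50b: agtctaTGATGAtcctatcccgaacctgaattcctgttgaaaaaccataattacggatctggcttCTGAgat

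The scaRNA of Snhg20 overlaps a microRNA gene, Mir6516, whose mature arms both lie inside it. The RefSeq sequences (GRCm38.p6) of the arms, at chr11:117077370-117077391 and chr11:117077412-117077433 on the plus strand, are shown with the seed, bases 2 to 8, in capitals; the arms do not share a seed.
mmu-miR-6516-5p: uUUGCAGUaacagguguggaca
mmu-miR-6516-3p: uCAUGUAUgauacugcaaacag

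Of the 34 hosted RNAs, only Snord87 of Snhg6 (chr1:9942463-9942549, minus strand), Snora73b of Snhg3 (chr4:132352322-132352526, minus strand) and Snora73a of Snhg3 (chr4:132352775-132352979, minus strand) had any count in the gene table. Snora73a and Snora73b differ at 7 of 205 positions, so reads of one could be assigned to the other, and their separate levels are uncertain.
Snord87: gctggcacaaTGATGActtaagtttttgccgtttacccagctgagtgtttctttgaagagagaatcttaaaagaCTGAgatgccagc
Snora73b: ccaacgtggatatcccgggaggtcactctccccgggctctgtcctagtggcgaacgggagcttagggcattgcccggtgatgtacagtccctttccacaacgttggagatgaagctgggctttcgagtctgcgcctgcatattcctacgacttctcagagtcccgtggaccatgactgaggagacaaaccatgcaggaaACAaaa
Snora73a: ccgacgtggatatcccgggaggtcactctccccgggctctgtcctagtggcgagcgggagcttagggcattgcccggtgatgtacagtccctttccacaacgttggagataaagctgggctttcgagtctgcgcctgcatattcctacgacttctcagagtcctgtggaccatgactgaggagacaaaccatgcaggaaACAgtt

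Gene counts ran from 6833258 to 17771804 per library. Levels are given as CPM, counts scaled to a common library size with TMM factors of the gene table. Wild-type replicate 1 stood apart, in which 14245 genes were detected (17442 to 18791 in its 3 companions), and the PROMPT table does not include it. Btbd7 RNA measured 99.2 ± 3.24 CPM (SD, n = 4) in Btbd7 KO and 202 ± 7.66 in wild type. Zcchc8 RNA measured 65.1 ± 2.92 CPM in wild-type cells, 23.3 ± 1.35 in clone 2, 60.3 ± 4.29 in clone 1 and 54.6 ± 4.83 in clone 3, and every library of clones 2 and 3 lay below the lowest wild-type library, whereas clone 1 overlapped with wild type. All 8 epithelial markers examined were present, at a summed 3180 to 5120 CPM. Summed markers of mesenchyme reached 10.2 to 35.2 CPM, those of leukocytes 4.09 to 13.4, those of endothelium 0 to 1.15 and those of neurons 0 to 0.274. A mean of at least 1 CPM was reached by 3 of 4 mesenchyme markers and, of 3 leukocyte markers, only by Cd68.

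Per kilobase of merged exon, Snhg1 was the most abundant host in wild type, at 50.5 ± 2.48 CPM per kb (SD, n = 4), and Snhg12 the least, at 2.26 ± 1.18. Between them stood Snhg3 (42.3 ± 17.9), Snhg8 (27.4 ± 3.54), Gas5 (23.4 ± 4.62), Snhg5 (14.8 ± 1.49), Snhg15 (14.1 ± 1.21), Snhg6 (13.6 ± 2.05), Snhg17 (6.06 ± 0.666) and Snhg20 (4.20 ± 1.22 CPM per kb). Neighbours in this order from Snhg1 down to Gas5 differed by less than the larger SD of the pair, as did Snhg5, Snhg15 and Snhg6; the other steps were wider than that. In clone 3 the order began with Snhg15, at 52.0 ± 2.98 CPM per kb, followed by Snhg1 at 43.7 ± 5.56, Snhg3 at 36.5 ± 2.82 and Gas5 at 35.9 ± 2.40. Merged exons take in every annotated transcript, retained-intron ones included. They cover 2969 of 2969 bases of Snhg1 and 3760 of 4118 of Gas5, but 986 of 5673 of Snhg3. The order per kilobase therefore depends on the annotation. In plain CPM, wild-type Gas5 (88 ± 17.4) stood above Snhg3 (41.7 ± 17.6). Snhg1 (150 ± 7.36) and Snhg12 (5.43 ± 2.84) were highest and lowest in CPM too.

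**Figure D1:**
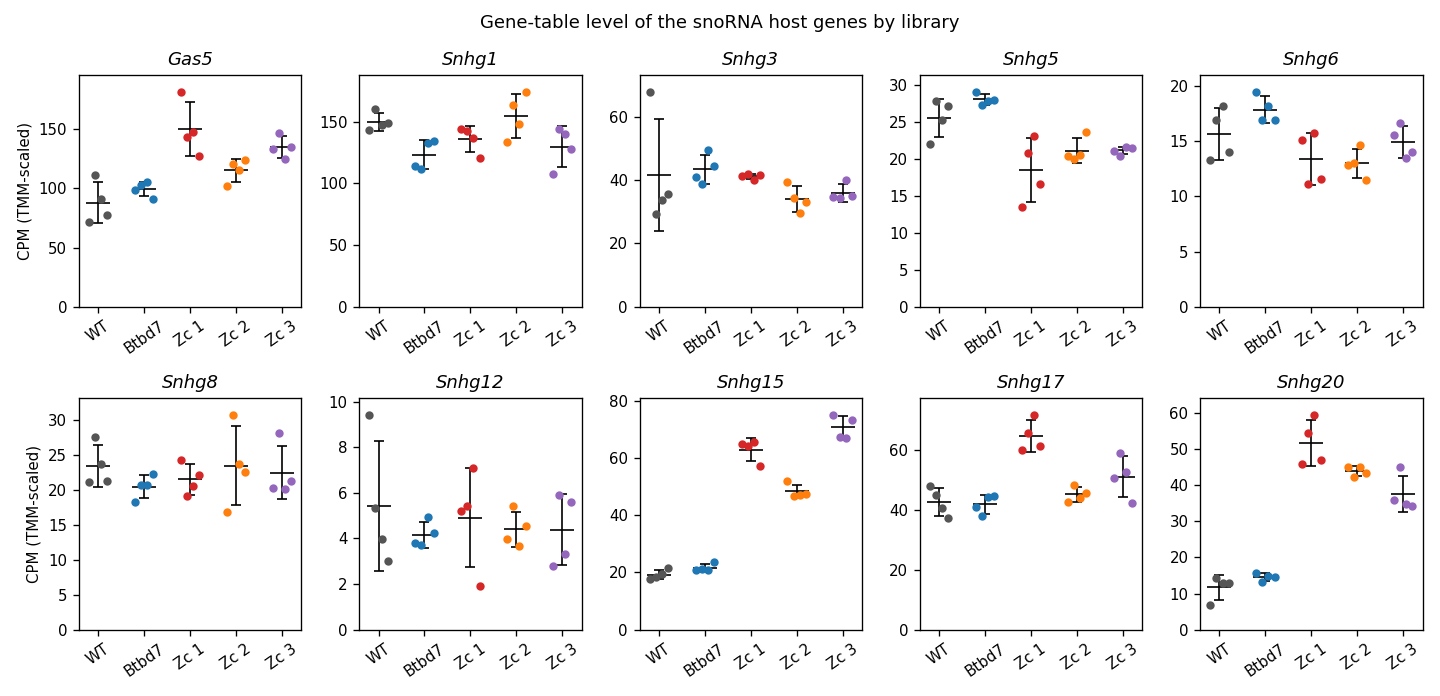
CPM of each host gene (linear axis from 0) in every library of wild type (WT), Btbd7 KO (Btbd7) and Zcchc8 KO clones 1 to 3 (Zc 1, Zc 2, Zc 3); points are libraries, dashes and bars are the group mean and SD (n = 4). Snhg15 and Snhg20 lay above every control library in all 12 Zcchc8 KO libraries, and the other hosts overlapped with the controls. The share of all tested genes that separate in this way was not counted.

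Taking the 3 clones together, Gas5, Snhg15, Snhg17 and Snhg20 rose against wild type, Snhg5 fell, and the other 5 hosts did not pass the test. Thus 4 of 10 hosts were higher, where 16.3% of all tested genes were, and 1 of 10 was lower, where 19.9% were. Without TMM scaling the genome-wide shares were 21.1% higher and 13.1% lower, and the same hosts were called. The median log2 fold change of the 10 was -0.08, against -0.01 over all tested genes. Calls rest on edgeR's quasi-likelihood test with a Benjamini-Hochberg adjusted p under 0.05 over the 15296 genes, and log2 fold changes are given with their standard error (SE).

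Snhg15, the host of Snora9, is a noncoding gene at chr11:6525591-6528760 on the minus strand. In wild type its level was 17.6, 18.5, 19.4 and 21.4 CPM, and in Btbd7 KO 20.7, 21.1, 20.8 and 23.5. It reached 64.7, 64.2, 65.7 and 57.2 CPM in clone 1, 51.8, 46.9, 47.2 and 47.2 in clone 2, and 75.1, 67.4, 67.0 and 73.1 in clone 3. The 12 Zcchc8 KO libraries all lay above the 8 control libraries, and the 3 clones did not overlap with each other. The log2 fold change of the clones' mean was 1.64 (SE 0.07, 3.11-fold; adjusted p = 6.58e-15, edgeR). Clones 1, 2 and 3 gave 1.71, 1.33 and 1.88.

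Snhg20, at chr11:117076008-117078955 on the plus strand, carries the scaRNA that overlaps Mir6516. Wild type held 6.70, 14.2, 13.0 and 13.0 CPM, the low value being that of replicate 1, and Btbd7 KO 15.8, 13.3, 14.9 and 14.4. Clone 1 held 46.0, 54.6, 59.5 and 47.0 CPM, clone 2 45.1, 42.3, 45.1 and 43.3, and clone 3 36.0, 44.9, 34.8 and 34.2. No Zcchc8 KO library overlapped with a control library. The log2 fold change was 1.90 (SE 0.13, 3.74-fold; adjusted p = 4.49e-11, edgeR), with 2.14, 1.90 and 1.67 in clones 1, 2 and 3. Without wild-type replicate 1 it was 1.73 (adjusted p = 2e-17, edgeR).

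Gas5 (growth arrest specific 5), at chr1:161034422-161038539 on the plus strand, encodes a noncoding RNA that accumulates in growth-arrested cells. Its wild-type levels were 71.7, 111, 91.4 and 77.9 CPM and those in Btbd7 KO 98.8, 103, 105.5 and 91.5. Clone 1 gave 181.5, 143.8, 147.7 and 127.7 CPM, clone 2 101.8, 120.4, 115.8 and 123.7, and clone 3 133.5, 146.9, 125 and 134.7. Of the 12 Zcchc8 KO libraries 11 lay above every control; replicate 1 of clone 2 lay within the control range. The log2 fold change was 0.59 (SE 0.09, 1.51-fold; adjusted p = 1.17e-05, edgeR), and it was called in each clone at 0.77, 0.39 and 0.62. The start of Gas5 overlaps Zbtb37 on the opposite strand, whose group means ran from 54.5 ± 3.36 (wild type) to 62.9 ± 8.21 CPM (clone 3; SD, n = 4); the part of such reads in the Gas5 count was not tested.

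Snhg17, at chr2:158353700-158361580 on the minus strand, hosts 3 RNAs of the ACA kind. Wild type had 48.0, 45.01, 40.6 and 37.4 CPM and Btbd7 KO 40.9, 37.9, 44.2 and 44.8. The libraries of clone 1 had 60.04, 65.8, 71.8 and 61.5 CPM, those of clone 2 42.8, 48.4, 44.0 and 45.7, and those of clone 3 50.6, 58.9, 52.6 and 42.4. All 4 libraries of clone 1 lay above the controls, 3 of clone 3 did, and in clone 2 only replicate 2 exceeded the highest control of 48.0. Over the clones the log2 fold change was 0.31 (SE 0.08, 1.24-fold; adjusted p = 0.00304, edgeR). Clone 1 gave 0.60 (adjusted p = 2.69e-05, edgeR) and clone 2 0.08 (adjusted p = 0.549, edgeR). Clone 3 gave 0.25 and stood at the threshold (adjusted p = 0.0502, edgeR): it was called in 11 of 27 alternatives, among them the one without wild-type replicate 1 (0.32, adjusted p = 0.008, edgeR) and DESeq2 (0.28, adjusted p = 0.0308).

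Snhg5, at chr9:88521050-88522929 on the minus strand, hosts Snord50a and Snord50b and was the 1 host that fell. Its levels were 22.1, 27.8, 25.3 and 27.3 CPM in wild type and 29.1, 27.4, 27.9 and 28.0 in Btbd7 KO. They were 13.5, 20.9, 23.2 and 16.7 CPM in clone 1, 20.4, 20.02, 20.6 and 23.7 in clone 2, and 21.1, 20.5, 21.7 and 21.5 in clone 3. Of the 12 Zcchc8 KO libraries 10 lay below every control, the exceptions being replicate 3 of clone 1 and replicate 4 of clone 2. Snhg5 fell by 0.34 on the log2 scale (SE 0.10; adjusted p = 0.00719, edgeR). Single clones gave -0.47 (clone 1, adjusted p = 0.00453, edgeR), -0.27 (clone 2, adjusted p = 0.0832, edgeR) and -0.28 (clone 3, adjusted p = 0.0899, edgeR). Without wild-type replicate 1 clones 2 and 3 were called too, at -0.31 and -0.33 (edgeR adjusted p = 0.0322 and 0.0262), and in a fit of clone 1 and wild type alone clone 1 was not (adjusted p = 0.0638, edgeR).

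The remaining 5 hosts did not pass the test against wild type. Snhg1, at chr19:8723475-8726443 on the plus strand which hosts 8 snoRNAs, had 107 to 174 CPM in the Zcchc8 KO libraries and 143 to 160.3 in wild type (log2 fold change -0.10, SE 0.07; adjusted p = 0.291, edgeR). Snhg8 (chr3:123507552-123508404, minus strand), the host of Snora24, had 16.9 to 30.7 CPM against 21.1 to 27.5 (-0.06, SE 0.12; adjusted p = 0.75, edgeR). Snhg6 (chr1:9941959-9944118, minus strand) had 11.1 to 16.7 CPM against 13.3 to 18.2 (-0.18, SE 0.11; adjusted p = 0.211, edgeR). Snhg12 (chr4:132308623-132311024, plus strand), the lowest of the hosts, had 1.91 to 7.09 CPM against 2.99 to 9.43 (-0.25, SE 0.27; adjusted p = 0.502, edgeR). For these 4 the ranges overlapped, and the interval allowed by the SE was widest for Snhg12.

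Snhg3 (chr4:132348014-132353686, minus strand) depended on 1 library. It stood at 67.8 CPM in wild-type replicate 1 and at 29.4, 33.7 and 35.7 in the other wild-type libraries, while the Zcchc8 KO libraries ranged from 29.7 to 41.8. With all libraries the log2 fold change was -0.17 (SE 0.13; adjusted p = 0.336, edgeR), and without wild-type replicate 1 it was 0.18 (adjusted p = 0.0813, edgeR). The sign of Snhg12 turned in the same way, from -0.25 to 0.17 (edgeR adjusted p = 0.638 without that library). Snhg3 overlaps Rcc1, a protein-coding gene on the same strand, which stood at 29.0 ± 1.96 CPM in wild type and at 24.2 ± 4.92 to 27.6 ± 2.46 in the clones (SD, n = 4). Reads from shared sequence cannot be assigned to one of the 2 genes here.

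**Figure D2:**
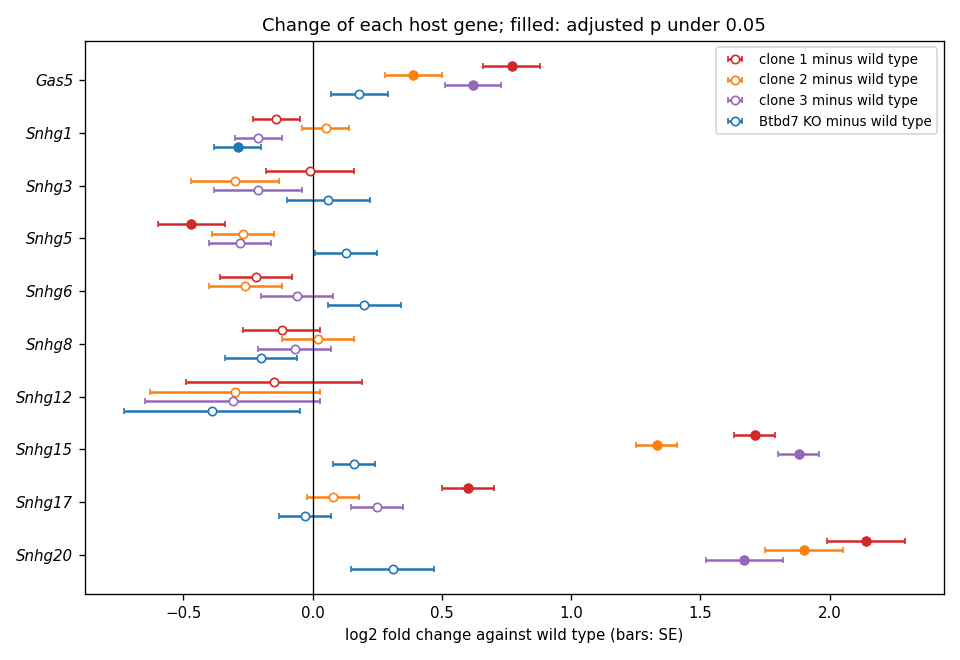
Log2 fold change against wild type (x axis; bars are the SE) of each host gene (y axis) in Zcchc8 KO clones 1, 2 and 3 and in Btbd7 KO, from the edgeR fit; filled points have an adjusted p under 0.05. Snhg15 and Snhg20 lay between 1.33 and 2.14 in the 3 clones, Gas5 between 0.39 and 0.77, and Snhg1 was the 1 host called in Btbd7 KO.

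The clones differed in how far the hosts moved. A joint test that the 3 clones are equal called 4 of 10 hosts, where 28.6% of all genes were called. These were Snhg15 (adjusted p = 1.4e-05, edgeR), Snhg17 (0.000524), Gas5 (0.0271) and Snhg20 (adjusted p = 0.0428, edgeR). The order was not shared: clone 3 was the highest for Snhg15, and clone 1 for Snhg20, Snhg17 and Gas5. Gas5 lost this call without replicate 1 of clone 1 or replicates 1 or 3 of clone 2 (edgeR adjusted p = 0.0535 to 0.102), and Snhg20 lost it in 10 of the single-library omissions (0.0512 to 0.137). Against wild type, 4 hosts were higher and 1 lower in clone 1 (background 16.8% and 19.1%). Clone 2 and clone 3 each had 3 higher and 0 lower, with a background of 16.1% and 16.3% in clone 2 and of 14.1% and 15.3% in clone 3.

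In the negative control, Btbd7 KO, 0 hosts were higher than wild type (background 7.73%) and 1 was lower (background 7.99%). The lower one was Snhg1, at 114, 111, 132 and 134 CPM against 143, 160.3, 147 and 149 in wild type, with no overlap. Its log2 fold change was -0.29 (SE 0.09; adjusted p = 0.028, edgeR). The call was lost without replicate 1 or 2 of Btbd7 KO or replicate 2 or 4 of wild type (edgeR adjusted p = 0.057 to 0.124). Gas5 (0.18), Snhg15 (0.16) and Snhg20 (0.31) had positive values that did not pass (edgeR adjusted p = 0.285, 0.201 and 0.188). Here too single libraries decided calls: without wild-type replicate 1 Snhg3 was higher (0.40, adjusted p = 0.00231, edgeR), which made 1 higher and 1 lower host. Without wild-type replicate 2 Gas5 was higher (0.31, adjusted p = 0.0239, edgeR). Set against Btbd7 KO instead of wild type, the clones gave the same 4 higher hosts and Snhg1 (0.19, adjusted p = 0.0474, edgeR), that is 5 of 10 against 18.9% of genes. Snhg5 (-0.47) and Snhg6 (-0.38) were then lower (edgeR adjusted p = 0.000324 and 0.00777), 2 of 10 against 22.2%. The 2 comparisons share the Zcchc8 KO libraries.

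Other genes that carry snoRNAs give the setting for these counts. Among 221 tested protein-coding snoRNA hosts, 19 (8.60%) were higher and 82 (37.1%) lower in Zcchc8 KO, with a median log2 fold change of -0.12. Among 20 tested other noncoding hosts found in the annotation, 6 were higher and 2 lower, with a median of 0.19. A further list of named noncoding hosts had 11 entries, 8 in the table and 5 tested. Of these Epb41l4aos (0.59, SE 0.23; adjusted p = 0.0491, edgeR) and Zfas1 (0.34, SE 0.07; adjusted p = 0.00027, edgeR) rose and 0 fell. No test of the lists against each other was made.

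The snoRNAs themselves were mostly invisible in the gene table. All 31 hosted RNAs that lie wholly within an annotated exon of their host, retained-intron transcripts included, had 0 counts in all 20 libraries, which allows up to 3 counts, or 0.0124 CPM, over the series. The 3 with counts lie outside the exons (Snord87, Snora73b) or only in part within them (Snora73a). The same held for all hosts in the annotation: 132 of 133 wholly exonic RNAs (99.2%) were at 0, against 10 of 25 partly exonic (40.0%) and 307 of 537 non-exonic ones (57.2%). Whether reads of these 31 RNAs were counted with Gas5, Snhg15, Snhg17, Snhg20, Snhg5 and the other hosts or were left out cannot be told apart here.

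Snord87, the C/D RNA of Snhg6, was at 6.44, 2.49, 2.54 and 2.29 CPM in wild type and 1.87, 1.59, 1.74 and 3.12 in Btbd7 KO. In the clones it ranged from 1.25 to 2.61 CPM. It fell by 0.93 on the log2 scale (SE 0.29; adjusted p = 0.0131, edgeR), which made 1 of 2 tested hosted RNAs lower, where 19.9% of all tested genes were. The call rested on wild-type replicate 1: without that library the change was -0.42 (adjusted p = 0.275, edgeR), and against Btbd7 KO it was -0.21 (adjusted p = 0.629, edgeR). Snora73b, the ACA RNA of Snhg3, was at 23.0, 31.3, 34.9 and 30.4 CPM in wild type and at 20.8 to 32.2 in the clones, which overlapped. Its log2 fold change was -0.20 (SE 0.10; adjusted p = 0.122, edgeR), and -0.29 without wild-type replicate 1 (adjusted p = 0.0121, edgeR). In Btbd7 KO neither was called. Snora73a had too few counts to be tested, with 81 over the 20 libraries against 6748 for Snora73b.

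Among 115 tested RNAs hosted in protein-coding genes, 48 (41.7%) rose and 3 (2.61%) fell in Zcchc8 KO, against 16.3% and 19.9% of all tested genes. Their median log2 fold change was 1.04. This set is not separate from the members, of whose RNAs only 2 were tested. Snora73b also lies in Rcc1 on the same strand, so it is in the set and is paired with both hosts in the ratios below. All snoRNA and scaRNA genes together took 0.0498% to 0.0641% of gene counts in the 8 control libraries and 0.0765% to 0.134% in the 12 Zcchc8 KO libraries. As a ratio of hosted RNA to host, tested with limma over 128 pairs, 65 pairs (50.8%) were higher and 4 (3.12%) lower in Zcchc8 KO, with a median log2 change of 1.34. Neither member pair was called. Snord87 to Snhg6 had a log2 change of -0.62 (SE 0.33; adjusted p = 0.127, limma) and Snora73b to Snhg3 one of -0.11 (SE 0.20; adjusted p = 0.698, limma). Without wild-type replicate 1 the latter was -0.49 (adjusted p = 0.00392, limma).

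**Figure D3:**
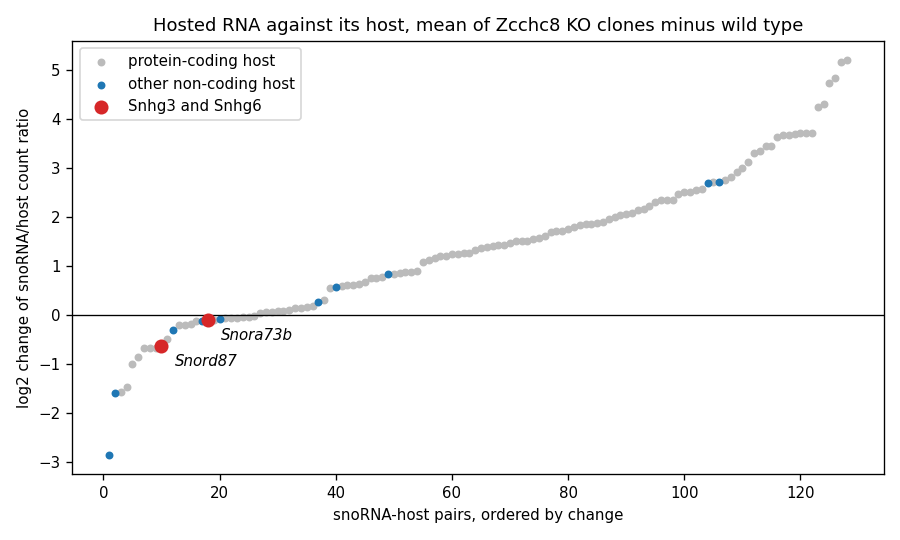
Log2 change of the hosted RNA to host count ratio (y axis), Zcchc8 KO (mean over the clones) against wild type, for 128 pairs in order of size (x axis); colours give the kind of host. Snord87 (-0.62) and Snora73b (-0.11), the 2 pairs of Snhg6 and Snhg3, lie on the low side of a distribution whose median is 1.34.

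The PROMPT table has a row named after each host. How far these regions reach and on which strand they were counted is not given in the sources used here. Of the 10 rows, 7 had any count and 3 had enough to be tested, those of Gas5 (457 counts), Snhg1 (329) and Snhg3 (442). The rows of Snhg8, Snhg15 and Snhg17 were at 0 in all 19 libraries. By counting error alone this allows up to 3 counts, or 0.0132 CPM. Reads may also have been left out by the counting rule, which is not known here, and such a loss is not covered by the limit. Rows named after RNAs inside these hosts did have counts. No change could be read from the row of Snhg15, although its gene row rose. That of Snhg20 had 6 counts, that of Snhg12 1, that of Snhg6 17 and that of Snhg5 19. The counts of the Snhg5 row came from the 4 libraries of clone 2 (0.548, 0.427, 0.228 and 0.207 CPM) and replicate 3 of clone 3 (0.255).

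None of the 3 tested rows was called against wild type, where 39.2% of all 17617 tested PROMPT rows were higher and 3.85% lower, with a median log2 fold change of 0.43. Scaled within the PROMPT table, 30.1% of rows were higher and 21.9% lower, with a median of 0.02, and the Snhg3 row was lower (-0.91, adjusted p = 0.0127, edgeR). The Gas5 row was at 2.02, 1.27 and 1.11 CPM in wild type, which has 3 libraries in this table. It was at 0.781, 2.03, 1.88 and 2.04 CPM in clone 1, 1.10, 2.85, 3.02 and 2.90 in clone 2, and 2.06, 2.64, 1.40 and 1.30 in clone 3. These values overlapped, and the log2 fold change was 0.42 (SE 0.35; adjusted p = 0.348, edgeR). The Snhg1 row was at 0.347, 1.79 and 0.762 CPM in wild type and between 0.521 and 2.51 in the clones. Its log2 fold change was 0.64 (SE 0.42; adjusted p = 0.231, edgeR), and without wild-type replicate 3, the high one, 1.40 (adjusted p = 0.0241, edgeR).

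The Snhg3 row had the opposite sign, from 2.31, 2.62 and 1.99 CPM in wild type to between 0.579 and 2.73 in the clones, where 9 of 12 libraries lay below every wild-type library. The log2 fold change was -0.53 (SE 0.32; adjusted p = 0.19, edgeR). Against Btbd7 KO, at 2.47, 2.59, 3.47 and 1.77 CPM, it was -0.68 (adjusted p = 0.0494, edgeR), 1 lower of 3 rows where 6% of rows were lower and 45.1% higher. The Snhg1 row lies next to Slc3a2, which starts 106 bases upstream of Snhg1 on the other strand and encodes an amino acid transporter subunit. The wild-type level of Slc3a2 was 199 ± 12.6 CPM (SD, n = 4), and it was lower in all 12 Zcchc8 KO libraries, at 115 to 181; its part in the Snhg1 row was not tested. In Btbd7 KO 0 of the 3 rows were called, where 1.23% of rows were higher and 1.75% lower.

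Relative to the gene itself, the PROMPT row rose in 46.2% of 11371 genes and fell in 9.08% (limma, Zcchc8 KO against wild type), with a median log2 change of 0.73. The change of this ratio was -0.12 for Gas5 (SE 0.37; adjusted p = 0.814, limma), 0.98 for Snhg1 (SE 0.45; adjusted p = 0.0746, limma) and -0.77 for Snhg3 (SE 0.36; adjusted p = 0.0776, limma). None of the 3 was called over the clones together. In single clones Snhg3 was lower in clone 1 (-1.07, adjusted p = 0.0403, limma), where the ratio was higher in 45.4% of genes and lower in 8.58%. Snhg1 was higher in clone 3 (1.49, adjusted p = 0.0267, limma), with a background of 42.2% and 7.41%. In clone 2 none of the 3 was called (background 41.7% and 7.79%). Over the clones Snhg1 passed the threshold without wild-type replicate 3 (1.58, adjusted p = 0.00901, limma) or without replicate 4 of clone 2 (1.09, adjusted p = 0.0413, limma). Snhg3 passed it without replicate 1 of clone 1 (-0.88, adjusted p = 0.0283, limma).

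Rows of the PROMPT table named after the hosted RNAs, were examined after the values were seen. Of 35 such rows, Mir6516 included, 10 had counts and all 10 were tested. In Zcchc8 KO 2 rose and 4 fell, against the 39.2% and 3.85% over all rows. The background depends on the scaling: within the PROMPT table, 1 rose and 5 fell, against 30.1% and 21.9% over all rows. In Btbd7 KO 0 of the 10 were called. By clone, 4 rows were higher and 1 lower in clone 1 (38.7% and 4.22% of all rows), 0 and 4 in clone 2 (35.1% and 3.51%), and 2 and 2 in clone 3 (36.4% and 2.55%). The RNAs lie inside their hosts, but where their PROMPT rows start and end is not known here, so reads of the host, of its opposite strand and of sequence before the host cannot be told apart.

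Over the clones together, both higher rows were named after RNAs of Snhg17. The Gm26003 row was at 4.40, 3.22 and 4.11 CPM in wild type and 2.77, 3.52, 4.72 and 4.14 in Btbd7 KO. It reached 8.86, 11.1, 14.3 and 12.1 CPM in clone 1, 5.07, 4.77, 4.91 and 7.25 in clone 2, and 7.47, 4.77, 8.29 and 6.61 in clone 3, above every control library in all 12. The log2 fold change was 0.95 (SE 0.20; adjusted p = 5.64e-05, edgeR). The Gm24411 row, at 8.97 to 12.2 CPM in wild type and 10.7 to 23.2 in the clones, rose by 0.55 on the log2 scale (SE 0.15; adjusted p = 0.00155, edgeR). Both were called in clones 1 and 3, and neither in clone 2 (edgeR adjusted p = 0.0849 for Gm26003 and 0.168 for Gm24411). Scaled within the PROMPT table, Gm26003 was at 0.57 (adjusted p = 0.013, edgeR) and Gm24411 at 0.16, no longer called (adjusted p = 0.363, edgeR). As in the Snhg17 gene row, clone 1 had the highest mean of both rows, 11.6 ± 2.27 and 17.0 ± 4.16 CPM (SD, n = 4).

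The lower rows were named after RNAs of 4 different hosts. The row of Mir6516, which lies in Snhg20, was at 15.3, 9.64 and 6.63 CPM in wild type and 9.77, 9.56, 12.7 and 9.88 in Btbd7 KO. It was at 3.78, 7.31, 5.65 and 6.50 CPM in clone 1, 2.60, 3.06, 6.50 and 7.18 in clone 2, and 2.85, 5.02, 5.99 and 5.18 in clone 3, with 10 of 12 libraries below all controls. It fell by 1.03 on the log2 scale (SE 0.20; adjusted p = 1.23e-05, edgeR), whereas the Snhg20 gene row rose by 1.90. Without wild-type replicate 2, the high one, the fall was -0.65 (adjusted p = 0.0176, edgeR). The row of Snora9, the RNA of Snhg15, likewise moved against its host: it fell from 4.86, 5.08 and 2.93 CPM in wild type to between 1.496 and 4.64 in the clones (-0.66, SE 0.25; adjusted p = 0.0277, edgeR). That call was lost without wild-type replicate 2 or 3 or replicate 4 of clone 3 (edgeR adjusted p = 0.0521 to 0.166).

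The row of Snora73b, the RNA of Snhg3, fell from 52.0, 64.0 and 54.2 CPM in wild type to 37.5 to 51.3 in the clones, with all 12 libraries below every control (-0.38, SE 0.08; adjusted p = 7.95e-05, edgeR). The row of Snord87, the RNA of Snhg6, was at 26.8 to 29.6 CPM in wild type and 21.5 to 29.0 in the clones. It had a log2 fold change of -0.24 (SE 0.10; adjusted p = 0.0416, edgeR), a call lost in 14 of the single-library omissions (edgeR adjusted p = 0.0519 to 0.18). With scaling within the PROMPT table these 3 values were larger in size, at -1.04 (Snora9), -0.76 (Snora73b) and -0.61 (Snord87).

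The 4 rows not called over the clones together were those of Snord22 of Snhg1, Snora24 of Snhg8, Snord99 of Snhg12 and Snord50a of Snhg5. In clone 1 alone Snord99 (0.95, adjusted p = 0.0296, edgeR) and Snord50a (0.83, adjusted p = 0.0345, edgeR) were higher. Against Btbd7 KO the Snord22 row was higher (0.42, adjusted p = 0.0442, edgeR), which made 3 higher and 4 lower of the 10.

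**Figure D4:**
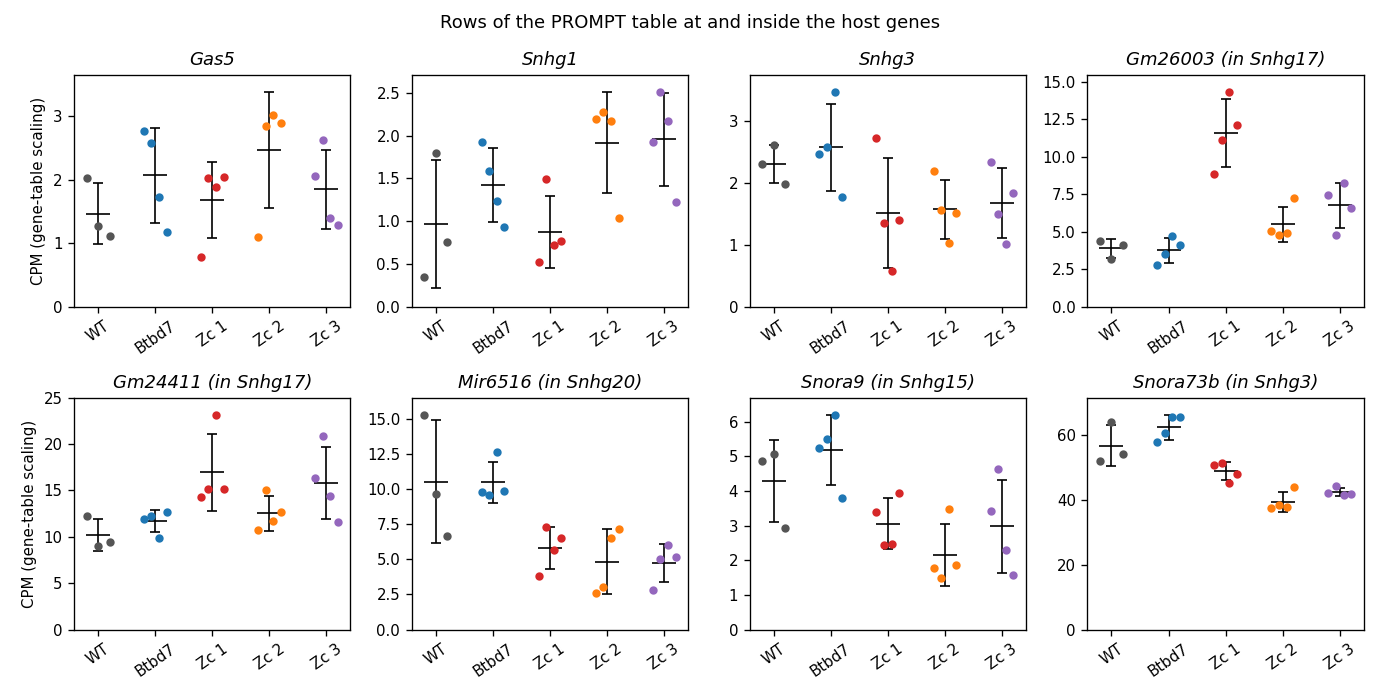
CPM (linear axis from 0) of 8 rows of the PROMPT table in wild type (WT, n = 3), Btbd7 KO and Zcchc8 KO clones 1 to 3 (n = 4 each): the rows named after Gas5, Snhg1 and Snhg3, and 5 rows named after RNAs inside Snhg17, Snhg20, Snhg15 and Snhg3. Points are libraries, dashes and bars the mean and SD. The Gm26003 row lay above, and the Snora73b row below, every control library in all 12 Zcchc8 KO libraries. The share of all PROMPT rows that separate in this way was not counted.

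Genes that act on snoRNAs and on their hosts were examined as lists. Of 18 tested snoRNP proteins and assembly factors, 1 was higher and 8 were lower in Zcchc8 KO, against 16.3% and 19.9% of all genes. The higher one was Nop10 (0.20, SE 0.07; adjusted p = 0.0254, edgeR). Gar1 (-0.57, SE 0.10, adjusted p = 5.04e-05, edgeR) and Dkc1, the pseudouridine synthase (-0.41, SE 0.06, adjusted p = 3.71e-06, edgeR), had the largest falls among the lower ones. The genes named here encode H/ACA proteins, but the list also holds C/D proteins and shared assembly factors. The other lower genes are not named, so the fall cannot be read as one of the H/ACA class. Of 10 factors of nonsense-mediated decay (NMD), a cytoplasmic route by which spliced snoRNA host RNAs can be degraded, 0 were higher and 3 lower. Upf3a (-0.37) and Smg5 (-0.21) were among them (edgeR adjusted p = 0.00133 and 0.00187). Of 16 genes of the nuclear exosome and its adaptors, without Zcchc8, 0 were higher and 8 lower, among them Exosc9 (-0.38) and Exosc8 (-0.32; edgeR adjusted p = 0.00684 and 0.00152). The median log2 fold changes of the 3 lists in Zcchc8 KO were -0.26, 0.01 and -0.21, against -0.01 over all tested genes. In Btbd7 KO the same lists had 1 higher and 0 lower, 1 and 0, and 2 and 1. Of all tested genes 7.73% were higher and 7.99% lower in Btbd7 KO.

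Over the 20 libraries, the gene whose log2 CPM followed a host most closely was named for 9 of the hosts, leaving out genes within 5 kb. Snhg15 was closest to Mrpl17 (Pearson r = 0.981), a mitochondrial ribosomal protein gene, and Snhg20 to 9330020H09Rik (0.971), an antisense RNA gene. Gas5 was closest to Hspb2 (0.925), Snhg5 to Elavl1 (0.890), Snhg12 to Dok3 (0.880), Snhg6 to Mrpl37 (0.875), Snhg3 to Rpl26 (0.862), Snhg1 to Itm2b (0.798) and Snhg8 to the pseudogene Gm7730 (0.690). Among the hosts the closest pair was Snhg15 and Snhg20 (r = 0.922). These values describe libraries that share groups and depth.

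RefSeq promoters, 250 bases before to 50 after the start on GRCm38.p6, were matched for 9 hosts and not for Snhg6. Many snoRNA hosts begin with a pyrimidine tract, and such a run of 5 or more within 10 bases of the RefSeq start was found in Snhg1, Snhg3, Snhg8 and Snhg12, 4 of 9, against 35.8% of 27025 genes. The windows of 10 bases on either side of the start base, with the runs in capitals, are shown for these 4 and for the 2 hosts with the largest rise. Neither of the latter has a run in this window, but the RefSeq start of Snhg20 lies 775 bases inside the GENCODE start. For Gas5, without a run in its window, the RefSeq start lies 179 bases inside. Among the hosts with a run, it lies 68 bases inside for Snhg8, 55 for Snhg12 and 12 for Snhg1. In Snhg3 the RefSeq and GENCODE starts coincide. In Snhg5 a pyrimidine run crosses the end of the window and was not counted.
Snhg1: tcttgtcggcctcaTTTTTCC
Snhg3: gaccacgcctgaCTTCCgggc
Snhg8: gttcagaagTCTCTTTggctg
Snhg12: TTCTCagTCCTTTCTCgcttc
Snhg15: ctgtgaccgtaactttaagca
Snhg20: gttccggccggaagtgcattt

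In the 300-base promoters, read on both strands, TATAAA occurred in 4 of the 9 hosts (Snhg1, Snhg3, Snhg5 and Snhg8), against 14.2% of all promoters. CACGTG occurred in 1 of the 9, that of Snhg15, against 7.24%. Both are matches of letters only.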

How the data were processed

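RNA was purified with Trizol and Qiagen columns, and stranded libraries were made from it, per the labels' protocols. The authors deposited raw counts per gene (20 libraries) and per PROMPT row (19 libraries). The submitters' processing notes name FastQC and STAR 2.7.3a; the counter, genome build, strand setting and PROMPT boundaries are not given in the sources used here. Of 55471 identifiers, 54487 matched GENCODE M21 with version and 55144 without (Snhg5 and Snhg15 among the latter).

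The tool for counts was edgeR 4.0.16 (R 4.3.3; quasi-likelihood, 1 fit per table over 5 groups, filterByExpr, TMM over the gene table). PROMPT rows were scaled by the gene table. Ratios were tested with limma 3.58.1 on log2 values with a pseudocount of 0.5. Hosted RNAs lie wholly inside the host on its strand. On simulated counts, 93.0% of 2-fold and 100% of 4-fold gene changes were recovered, and 80.0% and 100% of PROMPT changes. Among simulated ratios, 66.5% of 2-fold changes were recovered. No library was made to stand apart. In the gene and PROMPT simulations, changes were placed only in rows above a minimum mean count. The tested PROMPT rows of hosts lie near that minimum, so recovery there may be lower. The ratios were simulated with set mean counts and dispersions over 20 libraries, not from rows of the data. Recovery of the ratios tested here may therefore differ. Replicate libraries differed by more than sampling error (chi-square over its degrees of freedom, 2.89 to 79.7). Pairs with wild-type replicate 1 gave 39.3 to 79.7, the other wild-type pairs 6.52 to 18.3, and pairs in the KO groups 2.89 to 8.5. The replicate numbers did not pair libraries: in 40 same-numbered pairs the correlation of deviations was -0.06 to 0.091. The upper limits given for rows at 0 cover counting error only, and not reads left out by the counting rule.

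The members, lists and naming rule were chosen with earlier results of these data known. All members, hosted RNAs with enough counts, the closest gene to each host (1 of these is not reported here), and from each list the gene or genes with the largest called changes were named. Alternatives were DESeq2 1.42.0, other filters and scalings, a replicate block, equal depth, Btbd7 KO as control and each library left out.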

Additional observations from a re-analysis of the deposited data

Results flagged for a closer look

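In 113 groups of 4 libraries examined, 17 held a library set apart from its group by more than Dixon's 95% limit; chance alone flags about 1 group in 20. Wild-type replicate 1 was such a library in 3 gene rows: Snhg3 (67.8 CPM, high), Snhg20 (6.70, low) and Snord87 (6.44, high). In other gene rows the libraries set apart were Snhg15 in Btbd7 KO replicate 4 (23.5 CPM) and clone 2 replicate 1 (51.8), Snhg20 in clone 3 replicate 2 (44.9), Snhg3 in clone 3 replicate 3 (40.1), Snhg5 in clone 2 replicate 4 (23.7) and Snhg8 in clone 3 replicate 2 (28.1). In the PROMPT table they were Gas5 in replicate 1 of clone 1 (0.781 CPM) and of clone 2 (1.10) and Snhg1 in clone 2 replicate 4 (1.04), all low. Among rows of hosted RNAs they were Gm24411 in clone 1 replicate 3 (23.2), Gm26003 (7.25) and Snora73b (44.1) in clone 2 replicate 4, Mir6516 in Btbd7 KO replicate 3 (12.7) and Snora24 in clone 3 replicate 2 (24.6), all high.

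The size of the change differed between the Zcchc8 KO clones for Snhg15 (edgeR, adjusted p = 1.4e-05 in the joint test of the 3 clones), Snhg17 (0.000524), Gas5 (0.0271) and Snhg20 (edgeR adjusted p = 0.0428).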

How the results depend on the processing

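Over the 3 clones together, the calls of Gas5, Snhg5, Snhg15, Snhg17 and Snhg20 kept their direction and their side of the threshold in all 29 alternatives, and leaving out single libraries gave 5 called hosts each time. With the replicate number as a block, which does not pair these libraries, the count of called hosts was 5 and that of PROMPT to host ratios moved from 0 to 1 (Snhg3, -0.93); it moved no other count of calls by over 1.5 times. PROMPT rows of hosts went from 0 called to 1 with Btbd7 KO as control or with scaling within the PROMPT table (Snhg3, lower in both), and hosted RNAs from 1 called to 0 with Btbd7 KO as control and to 2 with no low-count filter. Leaving out single libraries gave 0 to 1 called PROMPT rows, 0 to 1 ratios of PROMPT to host, 0 to 1 ratios of hosted RNA to host, 0 to 2 hosts in Btbd7 KO, 3 to 6 in clone 3 and 2 to 6 between clones. The cause of these changes was not tested. Several hosted-RNA rows of the PROMPT table also hung on a setting: Gm24411 was not called with scaling within that table (0.16), Snora9 not with DESeq2 (-0.62) or without TMM (-0.58), and Snord87 not in 5 settings besides the omissions.

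Signs also turned for values that had not been called in the comparison as reported. With Btbd7 KO as control they were 0.19 (Snhg1), 0.14 (Snhg12), 0.14 (Snhg8), -0.09 (Gas5 PROMPT row), -0.13 (Snhg1 PROMPT to host), 0.0034 (Snora73b to Snhg3) and 0.20 (Snord87 to Snhg6). Snhg8 was 0.02 without TMM and 0.01 at equal depth, and the Snhg3 PROMPT row in Btbd7 KO was -0.0031 with the block. Under omissions the log2 ranges that crossed 0 were -0.31 to 0.18 (Snhg3), -0.44 to 0.17 (Snhg12), -0.1 to 0.03 (Snhg8), -0.19 to 0.02 (Gas5 PROMPT to host), -0.49 to 0.06 (Snora73b to Snhg3) in Zcchc8 KO, and -0.08 to 0.4 (Snhg3), -0.58 to 0.02 (Snhg12), -0.08 to 0.04 (Snhg17), -0.09 to 0.09 (Snora73b), -0.0032 to 0.28 (the Snhg3 PROMPT row) in Btbd7 KO. Low counts limit Snhg12 (1123 over the series), Snord87 (550) and all PROMPT rows of hosts.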
